A study of Homo sapiens with 7 samples.

Results

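The main histone gene cluster of the human genome lies on the short arm of chromosome 6, and 192 peaks of 5 chromatin targets fell inside it in BJAB cells. The members are all peaks of the 5 deposited lists whose summit lay in hg19 chromosome 6 from 26 to 26.3 Mb or from 27.05 to 27.9 Mb, together 1.15 Mb. By target these were 54 peaks of RNA polymerase II (Pol II), 63 of SPT5 and 57 of TRIM28, with 12 of O-GlcNAc and 6 of OGA, out of 132744 peaks on chromosomes 1 to 22 and X. The remainder of chromosome 6, used for comparison, held 949 peaks of Pol II, 2526 of SPT5 and 2279 of TRIM28, with 367 of O-GlcNAc and 125 of OGA.

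BJAB is an established human B-cell line from a Burkitt's lymphoma per the labels, and it was profiled at multiple passages by chromatin immunoprecipitation and sequencing (ChIP-seq). The antibodies were 8WG16 for Pol II, and others for SPT5, for TRIM28 (TIF1b), for O-GlcNAcase (OGA, also named NCOAT) and for proteins that carry the sugar O-GlcNAc (RL2). Each target had 1 library of 1 cell line and no replicate, so no test between groups was possible, and the 2 libraries made with IgG are not analysed here. The intervals given are 95% intervals that cover counting error only, and neighbouring peaks of 1 domain are not independent of each other. Peak lists hold no gene names, so the B-cell identity of the line was not checked.

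Replication-dependent histone genes encode the linker histone H1 and the core histones H2A, H2B, H3 and H4, which package newly made DNA. They are short, have no introns, are transcribed mainly in S phase, and give mRNAs that end in a stem-loop in place of a poly(A) tail. Pol II initiates at these promoters and, as at most genes, meets the elongation factor SPT5, a subunit of DSIF, soon after. TRIM28 is a co-repressor brought to DNA by KRAB zinc finger proteins and is also named as a pausing factor in the series title. O-GlcNAc is a single sugar attached to serine or threonine residues, and OGA is the enzyme that takes it off.

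The RefSeq gene table (GRCh38.p14) lists 55 protein-coding histone genes of this kind on chromosome 6, namely 6 H1, 12 H2A, 15 H2B, 10 H3 and 12 H4 genes. In order they form a run of 32 genes from H1-1 to H4C8, and a second run of 21 genes from H2BC11 to H2BC17. The pair H2AC1 and H2BC1, known as testis histone genes, precedes H1-1. In 9 places an H2A and an H2B gene are neighbours that point away from each other and share the sequence between them. Strands were read from the promoter table used below, so only genes with an entry there could be counted as a pair. H2AC12 has no entry, and the count of 9 is therefore a lower limit. Because that table is of another build than the peak lists, its coordinates were not carried over, and peaks are given by hg19 position and not assigned to single genes.

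To show what a promoter of each family looks like, the 150 bases before the start of 1 gene per family follow, 5′ to 3′ on the gene's own strand, from RefSeq (GRCh38.p14). Each is the first gene of its family from H1-1 onward that the promoter table holds. H3C1 lies on the plus strand and the other 4 on the minus strand. Capitals mark, on either strand, the TATA box letters TATAAA, the box CCAAT and 7 letters of the octamer bound by Oct factors (TTTGCAT).
H1-1: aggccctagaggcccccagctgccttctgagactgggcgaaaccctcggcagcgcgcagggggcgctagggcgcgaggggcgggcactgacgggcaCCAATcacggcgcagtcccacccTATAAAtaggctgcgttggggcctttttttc
H2AC4: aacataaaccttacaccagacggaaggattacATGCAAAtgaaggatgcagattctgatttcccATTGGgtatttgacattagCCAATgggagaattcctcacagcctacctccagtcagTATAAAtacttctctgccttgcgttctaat
H2BC3: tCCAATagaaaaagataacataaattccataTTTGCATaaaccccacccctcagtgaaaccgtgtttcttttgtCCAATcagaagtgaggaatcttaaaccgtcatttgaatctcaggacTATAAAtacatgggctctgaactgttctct
H3C1: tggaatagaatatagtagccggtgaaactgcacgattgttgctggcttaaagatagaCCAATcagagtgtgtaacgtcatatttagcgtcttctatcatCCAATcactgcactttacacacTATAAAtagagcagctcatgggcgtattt
H4C2: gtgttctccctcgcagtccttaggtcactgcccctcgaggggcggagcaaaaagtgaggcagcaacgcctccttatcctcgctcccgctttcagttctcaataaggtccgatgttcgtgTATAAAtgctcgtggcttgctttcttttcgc

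All 5 carried TATAAA from 29 to 31 bases before the start, and only H2AC4 and H2BC3 held the octamer letters, 118 and 119 bases before it. CCAAT was present in the H1, H2A, H2B and H3 examples and not in the printed stretch of H4C2. Among the 50 histone genes whose promoter the table holds, 250 bases before to 50 after the start, TATAAA was found at 34 (68.0%), against 11.5% of all 35116 promoters. The octamer letters were found at 9 of 11 H2A, 12 of 15 H2B, 1 of 8 H3, 0 of 6 H1 and 0 of 10 H4 genes, against 4.46% of all promoters. CCAAT was found at 43 of the 50 histone genes (86.0%), against 34.6% of all. The pairs that share a promoter contribute the same letters to both genes. A match describes the letters only, and which of these promoters lay under a peak was not analysed here.

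Pol II, the enzyme that transcribes these genes, was packed densely along the cluster. Its 54 peaks amount to 47.0 per Mb (exact Poisson interval 35.3 to 61.3), against 5.58 per Mb (5.23 to 5.95) in the rest of chromosome 6, a ratio of 8.41 (exact conditional interval 6.27 to 11.1). Peaks of Pol II covered 4.32% of the cluster and 0.350% of the rest. Neighbouring Pol II summits lay a median of 5689 bp apart in the cluster (interval 2163 to 9428 bp, 52 gaps) and 34516 bp apart in the rest (28243 to 39673 bp). SPT5 did not share that order: its neighbouring summits lay a median of 6386 bp apart in the cluster (4605 to 9801 bp) and 3726 bp in the rest (3246 to 4157 bp). Among the gaps between SPT5 summits, 24.6% in the cluster and 39.1% in the rest were under 2 kb.

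Densities of the other targets were also higher than in the rest of the chromosome, by smaller ratios for SPT5 and TRIM28. SPT5 had 54.8 peaks per Mb in the cluster and 14.9 in the rest, a ratio of 3.69 (2.82 to 4.73). TRIM28 had 49.6 and 13.4 per Mb, a ratio of 3.70 (2.79 to 4.81). For O-GlcNAc the densities were 10.4 and 2.16 per Mb (ratio 4.83, interval 2.47 to 8.54). The 6 OGA peaks gave 5.22 per Mb in the cluster and 0.735 in the rest, with a wide interval on the ratio of 7.09 (2.55 to 15.9). SPT5 peaks covered 6.77% of the cluster and 0.983% of the rest, and TRIM28 peaks 1.83% and 0.462%. The sequence between the stretches, 26.3 to 27.05 Mb, had 11 Pol II, 27 SPT5 and 37 TRIM28 peaks, so cluster densities stood to it in ratios of 3.20 for Pol II (1.66 to 6.79), 1.52 for SPT5 (0.955 to 2.49) and 1.00 for TRIM28 (0.653 to 1.56).

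Of 1700 bins of 100 kb outside the cluster on chromosome 6, 1256 held no Pol II peak. The cluster was therefore also set against 29 to 33 Mb, which holds most of the gene-rich major histocompatibility complex. There the ratio stayed above 1 with its interval for Pol II, at 1.55 (1.10 to 2.16), from 47.0 peaks per Mb in the cluster and 30.2 in the 4 Mb region. The ratios were 0.824 for SPT5 (0.616 to 1.09), 0.926 for TRIM28 (0.679 to 1.25), 1.10 for OGA (0.359 to 2.86) and 0.907 for O-GlcNAc (0.438 to 1.74). These 4 intervals include 1. The balance between lists therefore differed: the cluster had 1.17 SPT5 peaks for each Pol II peak, against 2.66 in the rest of the chromosome and 2.20 at 29 to 33 Mb.

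**Figure D1:**
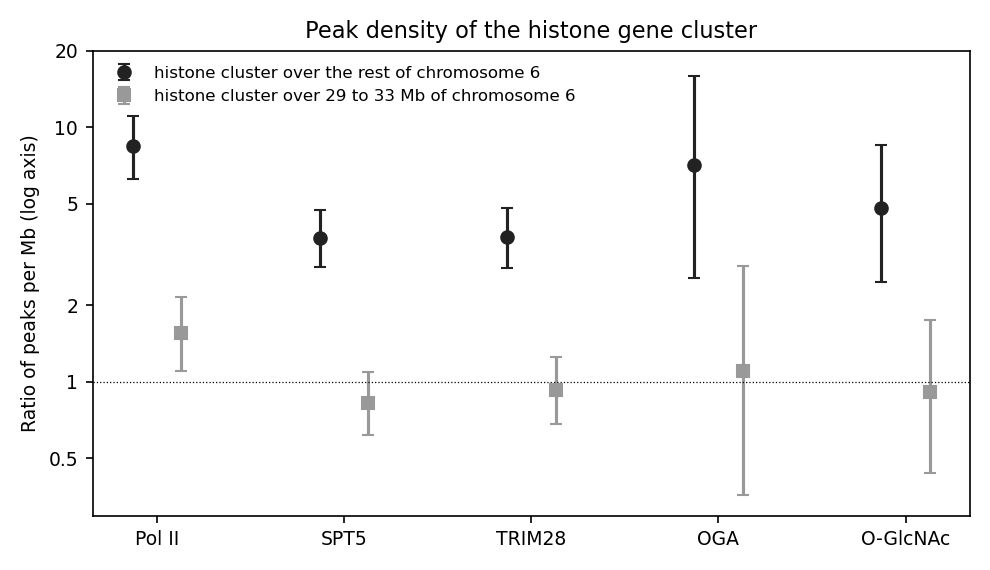
Ratio of peaks per Mb in the histone gene cluster over the rest of chromosome 6 (circles) and over 29 to 33 Mb (squares) for each target, on a log axis, with 95% exact conditional intervals. All 5 circles lie above 1, from 3.69 for SPT5 to 8.41 for Pol II, while among the squares only that of Pol II (1.55) has an interval above 1. Both stretches are pooled here: Pol II had 93.3 peaks per Mb in the first and 30.6 in the second, against 30.2 at 29 to 33 Mb.

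Within the cluster the peaks were unevenly spread. The first stretch, of 300 kb, held 28 Pol II peaks, or 93.3 per Mb (62.0 to 135), and the second, of 850 kb, held 26, or 30.6 per Mb (20.0 to 44.8). In steps of 100 kb, Pol II peaks numbered 8, 10 and 10 along the first stretch. The second stretch had 11 in its richest bin, from 27750001 to 27850000, and 0 in 3 bins, which begin at 27250001, 27450001 and 27550001. Outside the cluster, 5 of 1700 bins of chromosome 6 held 10 or more Pol II peaks, and the fullest held 12. TRIM28 was divided more evenly. Its first stretch held 19 peaks (63.3 per Mb, 38.1 to 98.9) and its second 38 (44.7 per Mb, 31.6 to 61.4), and the 3 bins without Pol II held 1, 4 and 3 TRIM28 peaks.

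Some intervals of the cluster held no peak of any of the 5 lists used here. The longest in the first stretch ran for 52.2 kb, from 26217880 to 26270058, and the longest in the second for 116 kb, from 27219956 to 27336025. For Pol II alone the second stretch had 2 empty intervals, of 221 kb and 214 kb, on either side of 3 peaks between 27440470 and 27447737. Whether reads in these intervals map uniquely was not analysed here.

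The nearest summit to any of the 4 ends of the stretches lay 3.25 kb from it. Fold enrichment, the height of a peak, is the authors' ratio of the peak to their background, and it is compared within 1 list only. The summits just inside were an SPT5 peak 20.7 kb above 26 Mb (fold enrichment 12.8), TRIM28 peaks 13.3 kb below 26.3 Mb (2.65) and 29.6 kb above 27.05 Mb (7.49), and a TRIM28 peak 28.6 kb below 27.9 Mb (3.37). Those just outside were TRIM28 7.04 kb below 26 Mb (2.63), Pol II 5.23 kb above 26.3 Mb (2.94), SPT5 3.25 kb below 27.05 Mb (2.99) and TRIM28 35.6 kb above 27.9 Mb (4.20).

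**Figure D2:**
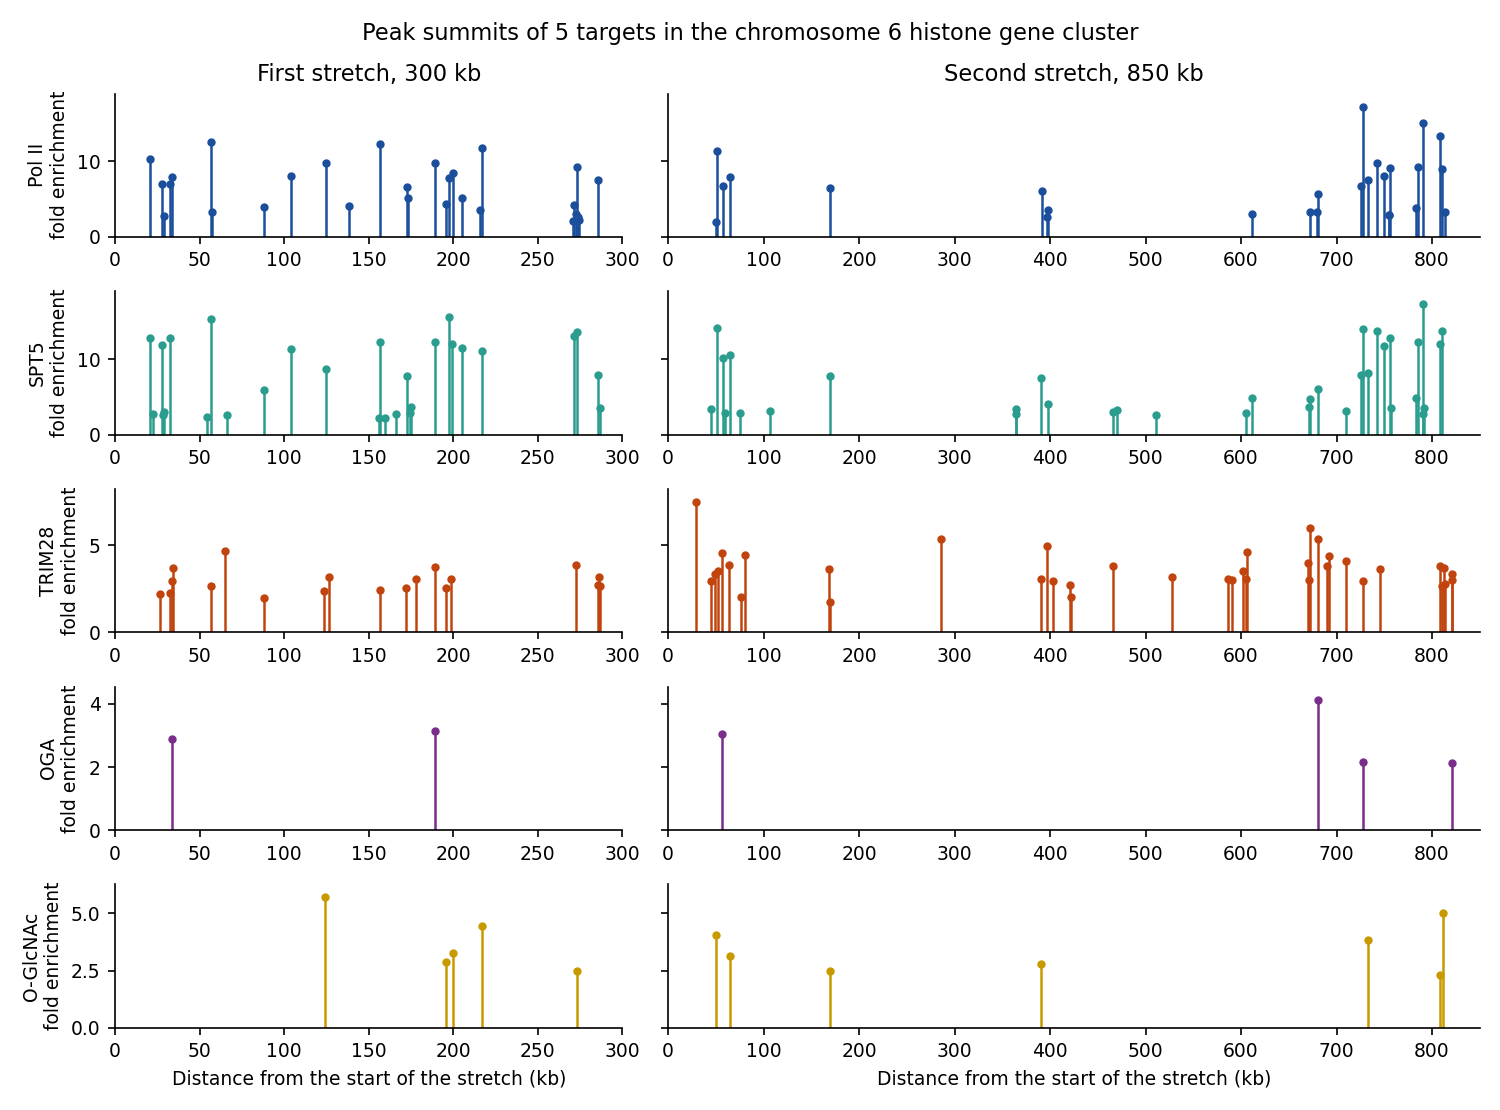
Summits of the 192 peaks along the first (left, 300 kb) and second (right, 850 kb) stretch, by distance from the start of the stretch in kb, with the height of each line giving the deposited fold enrichment on the scale of its own list. Pol II and SPT5 are crowded over the first stretch and around 750 kb of the second, while TRIM28 also marks the middle of the second stretch, where 3 bins of 100 kb held 0 Pol II peaks.

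SPT5 peaks in the cluster were taller and wider than elsewhere on the chromosome. Their median fold enrichment was 6.08 (order-statistic interval 3.50 to 10.2), against 3.41 (3.33 to 3.47) in the rest. Of the 63 SPT5 members, 24 (38.1%, Wilson interval 27.1% to 50.4%) ranked in the highest 10% of the whole SPT5 list, against a background of 12% in the rest of chromosome 6. The median width was 1179 bp (564 to 1435 bp) in the cluster and 412 bp (400 to 429 bp) in the rest, and 52.4% of members (40.3% to 64.2%) were wider than 1 kb, against 17.1%. When each list was cut to the length of the shortest, 2561 peaks, by deposited −log10 p and not by height, 18 SPT5 members were left. Then the median fold enrichment of the cluster minus that of the rest was -0.728, against 2.67 in the full list, with an interval that includes 0 (-1.66 to 0.353). The median width remained larger by 584 bp (101 to 1586 bp).

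Pol II peaks were wider, and their heights differed less. In the cluster 22 of 54 (40.7%, Wilson interval 28.7% to 54.03%) were wider than 1 kb, against 12.8% in the rest of the chromosome, and median widths were 806.5 bp (573 to 1065 bp) and 533 bp (498 to 559 bp). By stretch the median was 970 bp (573 to 1120 bp) in the first and 627 bp (417 to 1190 bp) in the second, whose interval includes 533 bp. Peaks wider than 1 kb made up 42.9% (26.5% to 60.9%) and 38.5% (22.4% to 57.5%) of the 2 stretches. Median fold enrichments were 6.68 (4.21 to 7.87) in the cluster and 5.26 (4.92 to 5.55) in the rest, with intervals that overlap. The highest 10% of the Pol II list took in 8 members (14.8%, 7.70% to 26.6%), near the background of 14.2%.

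TRIM28 peaks had the same median width in both places, 303 bp (271 to 392 bp) in the cluster and 303 bp (296 to 308 bp) in the rest. A single member (1.75%, 0.310% to 9.29%) was wider than 1 kb, against 1.01% of the rest. High TRIM28 peaks were few in the cluster: 1 of 57 (1.75%, 0.310% to 9.29%) stood in the highest 10% of its list, against 10.5% of the rest and 6.07% (13 of 214) at 29 to 33 Mb, which lies inside the cluster's interval. Median fold enrichments were 3.16 (2.98 to 3.65) in the cluster and 3.65 (3.58 to 3.70) in the rest, and the first stretch alone had 2.72 (2.44 to 3.19). O-GlcNAc peaks of the cluster were narrow, with a median of 208.5 bp (173 to 288 bp), against 345 bp (321 to 362 bp). Their median fold enrichments were 3.21 (2.50 to 4.43) in the cluster and 3.84 (3.65 to 4.06) in the rest.

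**Figure D3:**
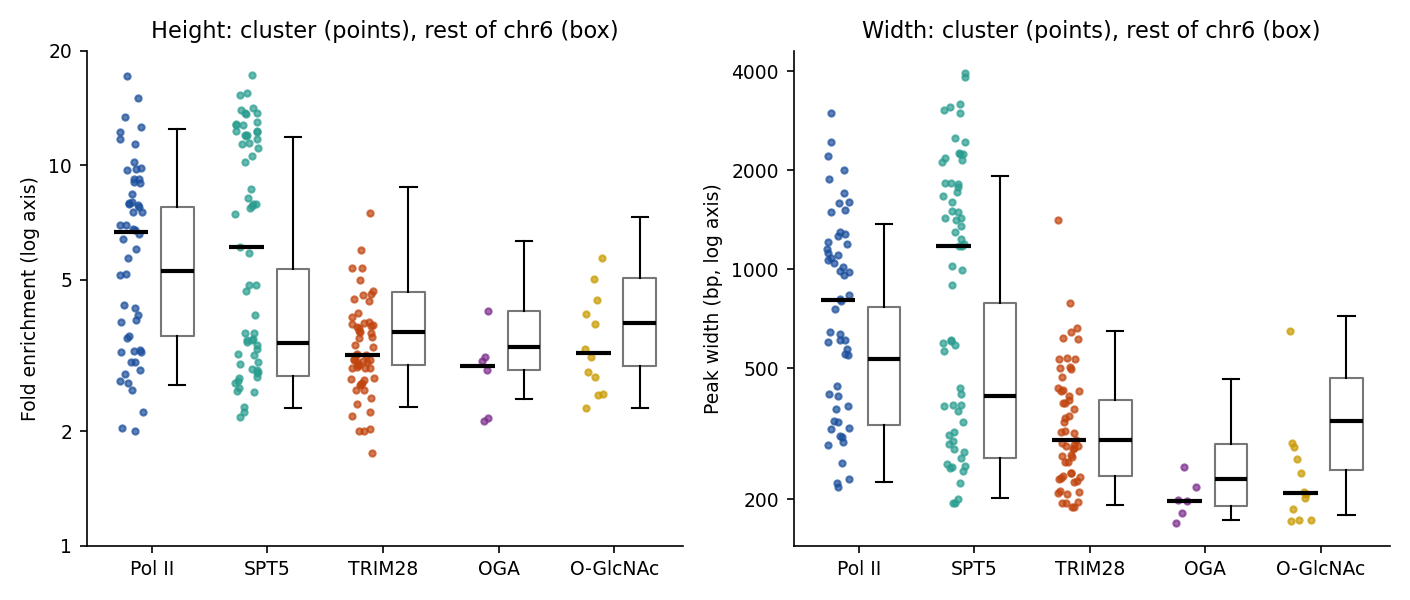
Fold enrichment (left) and width in bp (right), both on log axes, of every peak in the cluster (points, with a black line at the median) beside the rest of chromosome 6 (box from the 25th to the 75th percentile, whiskers from the 5th to the 95th, line at the median). Median widths in the cluster and in the rest were 1179 and 412 bp for SPT5, 806.5 and 533 bp for Pol II, 303 and 303 bp for TRIM28, and 208.5 and 345 bp for O-GlcNAc.

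The tallest members show what combinations occurred. The highest Pol II peak lay at 27777611 to 27778162 (fold enrichment 17.2, rank 87 of 19889 in its list) and overlapped SPT5, TRIM28 and OGA peaks. The next, at 27839108 to 27840383 (15.0), overlapped SPT5 alone, and the SPT5 peak there, at 27839065 to 27840358 (17.2), was the highest of SPT5 in the cluster. The third, at 27857692 to 27858954 (13.4), overlapped SPT5, TRIM28 and O-GlcNAc.

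After the SPT5 peak at 27839065 came those at 26195380 to 26197876 (15.5) and 26054631 to 26057620 (15.3), and all 3 overlapped Pol II. The widest SPT5 peak spanned 3940 bp, from 27098823 to 27102762, and the widest Pol II peak 2983 bp, from 26156333 to 26159315. The highest TRIM28 peaks, at 27079451 to 27079740 (7.49), 27721893 to 27722185 (5.97) and 27730334 to 27730760 (5.36), all lay in the second stretch. The first of these overlapped no other list.

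SPT5 peaks of the cluster lay at Pol II more often than those in the rest of the chromosome. SPT5 peaks overlapped 53 of the 54 Pol II members (98.1%, 90.2% to 99.7%), against 94.0% in the rest, a difference of 4.15 percentage points (Newcombe interval -3.88 to 6.44). In the other direction Pol II overlapped 38 of the 63 SPT5 members (60.3%, 48.0% to 71.5%), against 31.0% in the rest, a difference of 29.3 points (16.8 to 40.6), which became 0.918 points in lists cut to 2561 peaks. Where Pol II was present the 38 SPT5 members reached a median height of 11.6 (8.19 to 12.3), and the 25 without it 2.90 (2.71 to 3.29). In the rest of the chromosome these medians were 7.57 (7.28 to 7.91) with Pol II and 3.06 (3.01 to 3.08) without. Widths divided in the same way: at Pol II the SPT5 median was 1692 bp (1410 to 2142 bp) in the cluster and 873 bp (824 to 918 bp) in the rest, and away from Pol II it was 295 bp (252 to 370 bp) in the cluster and 327 bp (318 to 337 bp) in the rest.

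Several Pol II peaks often sat under 1 SPT5 peak. Of the 38 SPT5 members with Pol II, 12 (31.6%) overlapped 2 or more Pol II peaks, against 12.9% of 783 in the rest, and the SPT5 peak from 26272400 to 26274541, named after its value was seen, held 4. Summits of overlapping peaks coincided closely in both places. From SPT5 peaks that overlapped Pol II, the nearest Pol II summit was a median of 17 bp (11 to 20 bp) away in the cluster and 24 bp (21 to 26 bp) in the rest. From Pol II peaks that overlapped SPT5, the nearest SPT5 summit was 21 bp (17 to 51 bp) and 30 bp (26 to 34 bp) away, with intervals that overlap. The 25 SPT5 members without Pol II lay a median of 2011 bp (412 to 10217 bp) from the nearest Pol II peak, and 12 of them (48.0%) within 2 kb, against 18.8% of 1743 in the rest. Pol II peaks themselves stood at 47.0 per Mb in the cluster and 5.58 in the rest. Whether the shares in this paragraph differ beyond that density was not tested.

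TRIM28 was found at fewer of the Pol II peaks than in the rest of the chromosome. It overlapped 26 of 54 (48.1%, 35.4% to 61.1%), against 62.9%, a difference of -14.8 points (-27.9 to -1.39). Against all other sequence of chromosomes 1 to 22 and X the difference was -11.8 points (-24.6 to 1.22), and with peaks within 500 bp merged it was -8.04 points (-23.8 to 6.01). Both of these intervals include 0. In the rest, Pol II peaks with TRIM28 had a median fold enrichment of 6.20 and those without had 3.98. The shares of the rest were weighted to the heights of the cluster's Pol II peaks in 10 strata, a comparison chosen, like that of the highest 30%, after seeing the data. The share in the rest then became 64.4%, and 70.7% when weighted by Pol II width. Among the Pol II peaks in the highest 30% of the list, TRIM28 overlapped 14 of 27 in the cluster (51.9%, 33.99% to 69.3%) and 259 of 332 in the rest (78.0%, 73.3% to 82.1%), a difference of -26.2 points (-44.5 to -8.12).

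Seen from TRIM28, the cluster's peaks lay at Pol II and SPT5 more often than those in the rest of the chromosome. Pol II overlapped 28 of 57 TRIM28 members (49.1%, 36.6% to 61.7%), against 28.9% in the rest, and SPT5 overlapped 36 (63.2%, 50.2% to 74.5%), against 41.2%. The 2 stretches differed here: Pol II overlapped 15 of 19 TRIM28 peaks in the first and 13 of 38 in the second, where the difference from the rest was 5.34 points (-7.80 to 21.3). At 29 to 33 Mb the shares were 42.1% with Pol II, a difference of 7.07 points (-7.12 to 21.2), and 57.5% with SPT5, inside the cluster's interval. Of the 63 SPT5 members 29 (46.0%, 34.3% to 58.2%) overlapped TRIM28, against 32.5% in the rest and 37.6% at 29 to 33 Mb, which is inside the cluster's interval. At Pol II the TRIM28 members had a median height of 3.00 (2.66 to 3.67), and those without had 3.37 (3.03 to 3.82).

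O-GlcNAc marked 12 sites of the cluster, and every one of them held Pol II and SPT5. Pol II overlapped 12 of 12 O-GlcNAc members (interval 75.8% to 100%), against 83.4% in the rest, and SPT5 overlapped 12 of 12, against 91.6%. TRIM28 directly overlapped 4 of these 12 O-GlcNAc peaks (33.3%, 13.8% to 60.9%), against 65.1% in the rest, a difference of -31.8 points (-51.9 to -3.73). That difference did not hold for whole sites, in which overlapping peaks of all lists are merged. Sites of Pol II, SPT5 and O-GlcNAc without OGA numbered 10 with TRIM28 and 2 without it in the cluster, and 206 and 61 in the rest. O-GlcNAc peaks were also narrower in the cluster (median 208.5 bp, against 345 bp), and the part of width in the direct overlap was not tested. Seen from Pol II, O-GlcNAc was found at 12 of 54 members (22.2%, 13.2% to 34.9%), against 34%, a difference of -11.8 points whose interval includes 0 (-21.3 to 1.24). Weighted to the cluster's Pol II heights, the share in the rest was 36.3%. Among the tallest 30% of Pol II peaks it was 9 of 27 in the cluster (33.3%) and 175 of 332 in the rest (52.7%), a difference of -19.4 points (-35.0 to 0.215).

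**Figure D4:**
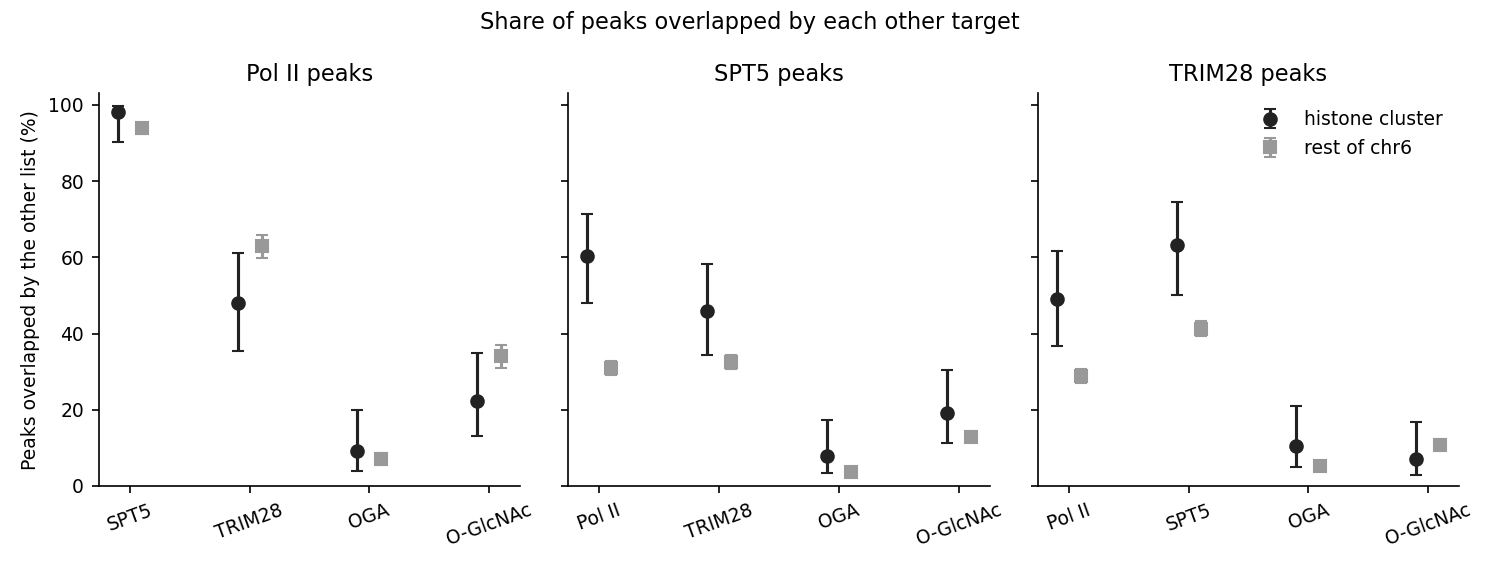
Share in percent of Pol II, SPT5 and TRIM28 peaks that each other list overlapped by at least 1 bp, in the cluster (circles) and in the rest of chromosome 6 (squares), with 95% Wilson intervals. Among Pol II peaks TRIM28 lies at 48.1% in the cluster and 62.9% in the rest, while among SPT5 peaks Pol II lies at 60.3% in the cluster and 31.0% in the rest.

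The 3 highest O-GlcNAc peaks of the cluster lay at 26124160 to 26124447 (fold enrichment 5.70), 27860961 to 27861256 (5.01) and 26216934 to 26217135 (4.43). None of the 12 was in the highest 10% of its list, which allows a share of up to 24.2% by the Wilson interval. O-GlcNAc summits stood a median of 146.5 bp (110 to 195 bp) from the nearest Pol II summit in the cluster and 161 bp (151 to 168 bp) in the rest. At 1 of the 12 the distance was 50 bp or less. The 12 Pol II members with O-GlcNAc had a median fold enrichment of 8.70 (6.42 to 11.4), and the 42 without had 5.16 (3.51 to 6.98), while in the rest of the chromosome these were 7.09 (6.64 to 7.44) and 4.33 (4.11 to 4.58).

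OGA had 6 peaks in the cluster, none of them in the highest 10% of its list, and the highest ranked 677 of 2561. From the strongest down they lay at 27730468 to 27730636 (fold enrichment 4.13), 26189285 to 26189483 (3.13), 27106948 to 27107164 (3.05) and 26033655 to 26033851 (2.90), followed by 27777741 to 27777991 (2.17) and 27870698 to 27870879 (2.12). Their deposited −log10 q values ran from 1.34 to 4.88, so none would pass a limit of 5.

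TRIM28 overlapped all 6, against 95.2% of 125 OGA peaks in the rest, and the nearest TRIM28 summit was a median of 24 bp away (15 to 75 bp), against 42 bp (38 to 53 bp). Pol II and SPT5 overlapped all of them but that at 27870698, which had TRIM28 only. Seen from Pol II, 5 of 54 members (9.26%, 4.02% to 19.9%) carried OGA, against 6.95% in the rest. The sugar and the enzyme that removes it were not found on the same peak: 0 of 6 OGA peaks overlapped O-GlcNAc, against 30 of 125 in the rest (24.0%), a difference of -24.0 points whose interval is wide (-32.2 to 15.6).

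Merging peaks of all lists that overlap, directly or through another peak, gave 85 sites in the cluster and 3920 in the rest of chromosome 6. Pol II was present at 39 of the 85 (45.9%, 35.7% to 56.4%), against 21.1% of sites in the rest. Sites of Pol II and SPT5 alone numbered 13 (15.3%, 9.16% to 24.4%), against 4.18%, and sites of Pol II, SPT5, TRIM28 and O-GlcNAc numbered 10 (11.8%, 6.52% to 20.3%), against 5.26%. Pol II, SPT5, TRIM28 and OGA met at 5 sites (5.88%, 2.54% to 13.0%), against 0.867%. These shares are over all sites, of which more held Pol II in the cluster. Among sites with Pol II, the set with TRIM28 and O-GlcNAc made up similar shares, 10 of 39 in the cluster and 206 of 828 in the rest. Pol II and SPT5 alone made up 13 of 39 and 164 of 828, and the set with OGA 5 of 39 and 34 of 828. Another 8 sites held Pol II, SPT5 and TRIM28, and 2 held Pol II, SPT5 and O-GlcNAc.

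No site of the cluster held all 5 targets, against 30 of 3920 in the rest (0.765%), and 0 of 85 allows a share of up to 4.32% by the Wilson interval. Lone peaks made up 40 sites (47.1%, 36.8% to 57.6%), namely 20 of TRIM28, 19 of SPT5 and 1 of Pol II, against 71.9% in the rest. The lone Pol II peak, at 26138111 to 26138368 and likewise named after its value was seen, had a fold enrichment of 4.05.

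Histone genes of 1 family are near copies of each other, and the sources used here do not give how reads that match several copies were placed. The share of each peak that rests on such reads was therefore not tested. The depth of the libraries is unknown, since the lists hold neither total reads nor reads per peak.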

How the data were processed

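Reads were handled with Bowtie2 2.1.0, Trimmomatic 0.30 and bcl2fastq 2.17 on build hg19, per the submitters' processing notes. Not given in the sources used here are the peak caller, its control and threshold, and the handling of reads with several matches. The labels state fixation in 1% formaldehyde for 5 min, 10 µg of antibody and 25 ng of DNA per library. The authors' files hold 1 line per peak, in 1 file per sample. The deposited fold enrichment is a ratio over the authors' background, and each peak also has a deposited −log10 q, which starts at 1.30 to 1.33 in the 5 lists, and a deposited −log10 p. The deposited score, 10 times the −log10 q without decimals, was not used.

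Summits were taken as peak start plus summit position, peaks were counted as overlapping from 1 bp, and coordinates are 1-based. Densities have exact Poisson intervals and their ratios exact conditional ones. Shares have Wilson intervals, their differences Newcombe intervals, and medians order-statistic intervals, all at 95%. The calculations were tested on simulated data with planted values. Python 3.11.15, numpy 2.4.6, pandas 2.3.3, scipy 1.17.1 and matplotlib 3.10.9 were used. The members, lists and comparisons were chosen with earlier results of these data known. Named peaks are the 3 highest of each list, the widest Pol II and SPT5 peaks, all OGA peaks, the fullest and emptiest 100-kb bins and those at the ends; 2 others were named after their values were seen. The rule for printed promoters took the first gene of each family by position. For H2A and H2B that gave H2AC1 and H2BC1, before H1-1, and for H4 a gene with no entry, so the next gene was printed. Peaks were not assigned to genes, since only a table of another build (GRCh38.p14) was given.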

Additional observations from a re-analysis of the deposited data

How the results depend on the processing

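Of 162 values from 10 alternatives for 23 results, 134 stayed within the interval of the main value. Some of these could not move, so the count overstates stability. OGA is the shortest list, and shortening left its density, height and width as they were. Merging peaks within 500 bp also left these OGA values unchanged. No paired analysis was possible because each target had 1 library. Values over fewer than 5 members were not computed, which removed those of OGA at a −log10 q of at least 5 and in either stretch alone. Lists were shortened to the 2561 peaks of highest deposited −log10 p, not of highest fold enrichment. Values of TRIM28 and O-GlcNAc peaks in these shortened lists were removed as well. The limit did not apply to the partner list of an overlap.

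Against 29 to 33 Mb in place of the rest of chromosome 6, the density ratios became 1.55 for Pol II and 1.10 for OGA, and turned below 1 for SPT5 (0.824), TRIM28 (0.926) and O-GlcNAc (0.907); the difference for TRIM28 peaks with Pol II became 7.07 points. Counting only 100-kb bins with a peak, which shortens the comparison, the density ratios were 4.45 for Pol II, 1.95 for SPT5 and 1.96 for TRIM28.

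In the shortened lists the density ratios were 16.6 for Pol II and 23.1 for SPT5. The median fold enrichment of the cluster minus the rest was -0.728 for SPT5 (-1.66 to 0.353, 18 members), against 2.67 in the full list. For Pol II it was -1.30 (-2.34 to 2.05, 14 members), against 1.42. Both intervals of the shortened lists include 0, so neither sign is settled. Differences in share became 26.5 points for Pol II with SPT5 and 0.918 for SPT5 with Pol II. The cause was not tested. For Pol II with TRIM28 the difference was -0.800 points, and for OGA with TRIM28 it was -3.2 points. Both follow from the shortening itself, which left 0 TRIM28 members, and say nothing about those overlaps.

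The first stretch alone gave density ratios of 16.7 for Pol II and 6.28 for SPT5, and a difference of -0.922 in TRIM28 median fold enrichment (-1.20 to -0.453). Its SPT5 median width was larger by 1058 bp, with an interval that includes 0 (-99 to 1730 bp). TRIM28 peaks with Pol II were 50.1 points more (27.7 to 62.8). The second stretch alone gave density ratios of 5.48 for Pol II and 2.77 for SPT5, and 5.34 points for TRIM28 peaks with Pol II (-7.80 to 21.3). With summits within 250 bp as the criterion, the differences were -5.60 points for Pol II with SPT5, 12 points for OGA with TRIM28 and 31.1 for O-GlcNAc with Pol II. At a −log10 q of at least 5 that of Pol II with OGA was -3.35 points, again by construction, since 0 OGA members pass that limit. Merging peaks within 500 bp, comparing with all other sequence of chromosomes 1 to 22 and X, or requiring 50% of the shorter peak moved no value beyond its interval. Weighting by Pol II height or width, chosen after seeing the data, moved none either.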
